A study of Mus musculus with 20 samples.

Results

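The genes described here are 34 genes of the extracellular matrix and of hepatic stellate cells, the fat- and vitamin A-storing cells of the liver sinusoid. They were taken by gene symbol and comprise 10 collagen chains, 5 proteoglycans and glycoproteins, 4 genes of the elastic fibre and of collagen cross-linking, 5 matrix enzymes and inhibitors, 4 contractile and cytoskeletal genes, and 6 receptors, growth factors and retinoid genes of stellate cells. All 34 were found among the 45306 genes of the table, and 33 of them were among the 15616 genes that had enough counts to be tested. Timp1, an inhibitor of matrix metalloproteinases, did not. Liver RNA of 20 mice was sequenced, 1 library each, in 4 groups of 5, to compare cold exposure (CE) and loss of Sirt2, a deacetylase that depends on NAD. All mice were on a C57BL/6 background and were 5 weeks old when they were divided into groups. Control mice were wild type and were kept at room temperature, and CE mice were wild type and were kept at 4 °C for 3 h per day over 3 weeks. Sirt2-/- mice carried a CRISPR-Cas9 deletion aimed at exons 5 to 7 of Sirt2 and were housed like Control mice, and Sirt2-/-/CE mice carried the same deletion and went through the same cold schedule. The deletion is present in all tissues, so it does not single out a cell type of the liver. The number of founder lines and the sex of the mice are not given in the sources used here.

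In a healthy liver, stellate cells lie between hepatocytes and the sinusoidal endothelium, esterify retinol with the enzyme encoded by Lrat, and secrete hepatocyte growth factor and reelin. When the liver is injured, transforming growth factor beta and platelet-derived growth factors turn them into contractile myofibroblasts that express smooth muscle actin and lay down collagens I and III. Matrix metalloproteinases and their tissue inhibitors set how fast this matrix is removed. Portal fibroblasts, vascular smooth muscle and endothelium also express many of these genes, and hepatocytes make the plasma form of fibronectin.

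Libraries held from 35499796 to 53917339 counts. Sirt2, the targeted gene, had 41.3 to 44.4 CPM (counts scaled to library depth) in Control and 40.2 to 56.2 CPM in CE mice, against 16.9 to 27.5 CPM in Sirt2-/- and 19 to 27.5 CPM in Sirt2-/-/CE mice, so that no knockout library reached a wild-type one. Counts on the whole gene include the exons that were not deleted. The tissue label was checked with marker genes: 8 hepatocyte markers together held 77100 to 169000 CPM per mouse, all 10 further stellate cell markers were expressed highly enough to be tested, and of 5 skeletal muscle and 5 adipose markers 1 each was. Ckm, Plin1 and Lep had 0 counts in every library, but the 5 adipose markers together held 2230 to 4220 CPM in Control mice. They held 203 to 2040 CPM in CE, 46.4 to 1540 CPM in Sirt2-/- and 1920 to 2620 CPM in Sirt2-/-/CE mice. No source states that the mice of a group came from separate litters or cages, so p-values measure the spread between these mice.

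Levels of the 34 genes were compared per kilobase of gene, as FPKM (fragments per kilobase of gene, scaled to library depth). Fn1 (fibronectin) had the highest mean, 156 FPKM over the 20 mice, with a range of 96.0 to 203 FPKM. The small leucine-rich proteoglycans Dcn (decorin) and Bgn (biglycan), which bind collagen fibrils, followed with means of 44.3 and 21.9 FPKM, and Sparc, a collagen-binding glycoprotein, with 18.9 FPKM. Mmp14, a membrane-bound metalloproteinase, and Vim, the intermediate filament protein vimentin, came next with 8.90 and 7.38 FPKM. In all, 21 genes had a mean of at least 1 FPKM and 13 had less. The collagen chain with the highest mean was Col14a1 (5.57 FPKM), ahead of Col3a1 (3.74 FPKM), Col4a1 (3.54 FPKM) and Col4a2 (2.95 FPKM), while Col1a2 and Col1a1, the chains of collagen I, had 1.82 and 0.992 FPKM. The ranges of these 6 collagen genes overlap one another across mice, for example 0.522 to 10.6 FPKM for Col14a1 and 0.464 to 8.68 FPKM for Col3a1. At the low end, Lox, which cross-links collagen and elastin, had 0.0584 FPKM and Timp1 0.0916 FPKM. Timp1 had 0 counts in 11 libraries and at most 18 in any other, and Lox had 0 counts in 1 library and at most 54. A count of 0 allows up to 3 counts, which is 0.0524 to 0.0887 CPM at these depths, and this limit covers counting error only.

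**Figure D1:**
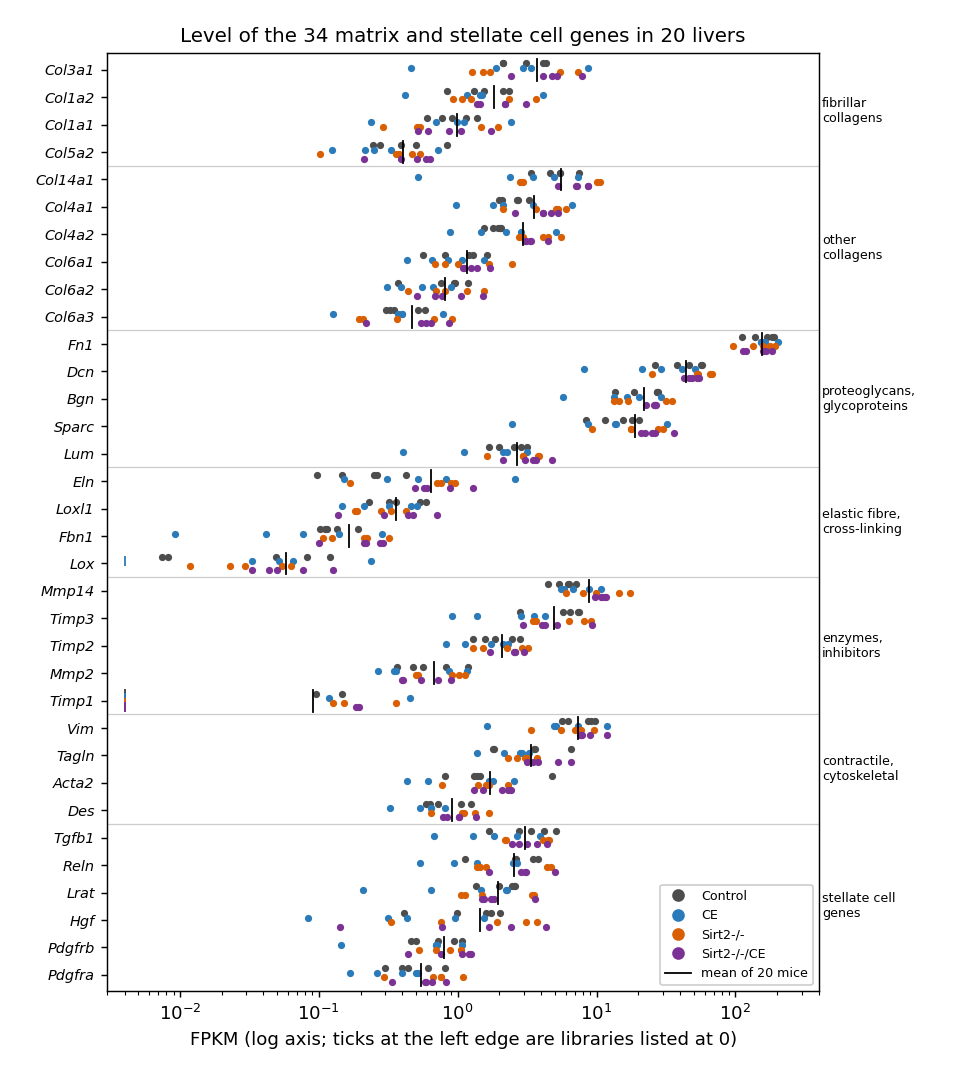
FPKM of each of the 34 genes on a log axis, with 1 point per mouse coloured by group, a black bar at the mean of 20 mice, and ticks at the left edge for libraries listed at 0. Fn1 lies highest at a mean of 156 FPKM and Lox lowest at 0.0584 FPKM, and the 4 colours overlap within nearly every gene.

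Most of these genes varied widely over the 20 mice, a spread that includes any difference between groups. Leaving aside Lox and Timp1, which had libraries at 0, the ratio of the highest to the lowest mouse was smallest for Fn1 (2.93) and largest for Hgf (40.6), which encodes hepatocyte growth factor, Fbn1 (27.3), which encodes fibrillin 1, and Eln (24.4), which encodes elastin. A single mouse, CE replicate 8, was the lowest of all 20 mice in 28 of the 33 tested genes and the lowest of its group in 30. Averaged over the 33 genes after centring each on its mean, its log2 CPM was -1.66, against -0.68 for the next lowest mouse, Sirt2-/- replicate 13. The highest averages were 0.71 in Sirt2-/- replicate 11, 0.63 in CE replicate 9 and 0.54 in Sirt2-/-/CE replicate 20, which were the highest mice in 9, 7 and 5 of the 33 genes. The CE mice spread over -1.66, -0.48, -0.31, -0.01 and 0.63, the Control mice from -0.48 to 0.53, the Sirt2-/- mice from -0.68 to 0.71 and the Sirt2-/-/CE mice from -0.13 to 0.54. Group means of this average were 0.03 ± 0.42 in Control, -0.37 ± 0.84 in CE, 0.04 ± 0.56 in Sirt2-/- and 0.29 ± 0.27 in Sirt2-/-/CE (SD, n = 5 mice each).

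**Figure D2:**
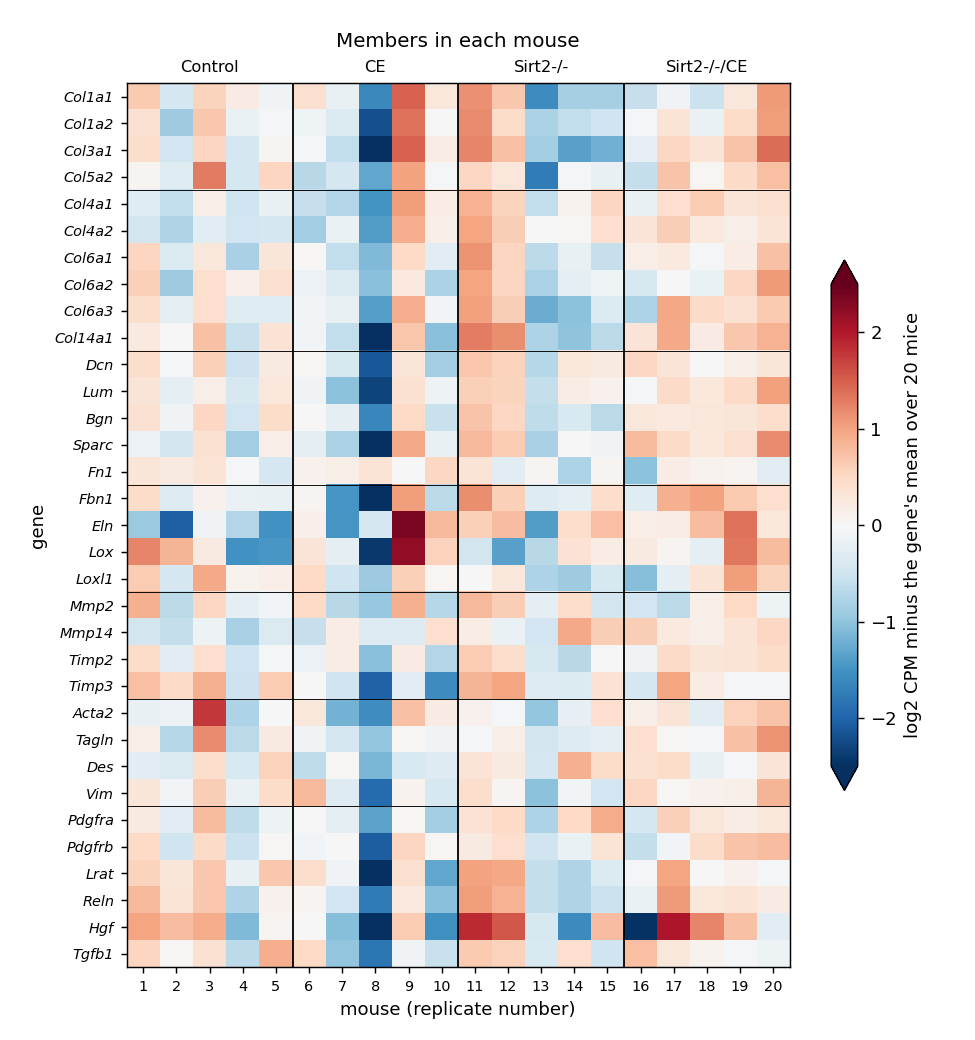
Log2 CPM of 33 genes (ordered by role) in 20 mice, centred on the gene's mean, with blue below and red above that mean and colours capped at 2.5 log2 units. The column of CE replicate 8 is blue in all genes but Fn1, and Fn1 is the 1 gene of that mouse above its mean.

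Markers of some other cell types moved with the matrix genes in CE replicate 8. Its averages were the lowest of the 20 mice for 10 stellate cell markers outside the 34 genes (-1.70), for 10 endothelial markers (-1.90), for 8 smooth muscle markers (-1.42) and for 8 macrophage markers (-1.31). For 6 portal fibroblast and mesothelial markers it had -0.69, and Sirt2-/-/CE replicate 16 lay lower at -0.75. For 7 bile duct markers CE replicate 8 had -0.01, and its average over 8 hepatocyte markers was the highest (0.40). Its depth of 40627312 counts, its 18045 genes with a count and its mitochondrial share of 7.72% lay within the ranges of the other mice, while its library scaling factor by the TMM method of edgeR, 0.87, was the lowest of the 20, with 0.915 to 1.15 in the others. Over groups, the summed level of the stellate cell markers ran from 105 to 259 CPM in Control, 44.9 to 179 in CE, 98.6 to 226 in Sirt2-/- and 164 to 285 in Sirt2-/-/CE mice. That of the endothelial markers ran from 94.3 to 368 CPM in Control, 65.5 to 271 in CE, 159 to 444 in Sirt2-/- and 290 to 472 in Sirt2-/-/CE mice. The part of these cell types in the results on the 34 genes was not tested, and in RNA of whole liver fewer cells of a type and less RNA per cell cannot be told apart.

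**Figure D3:**
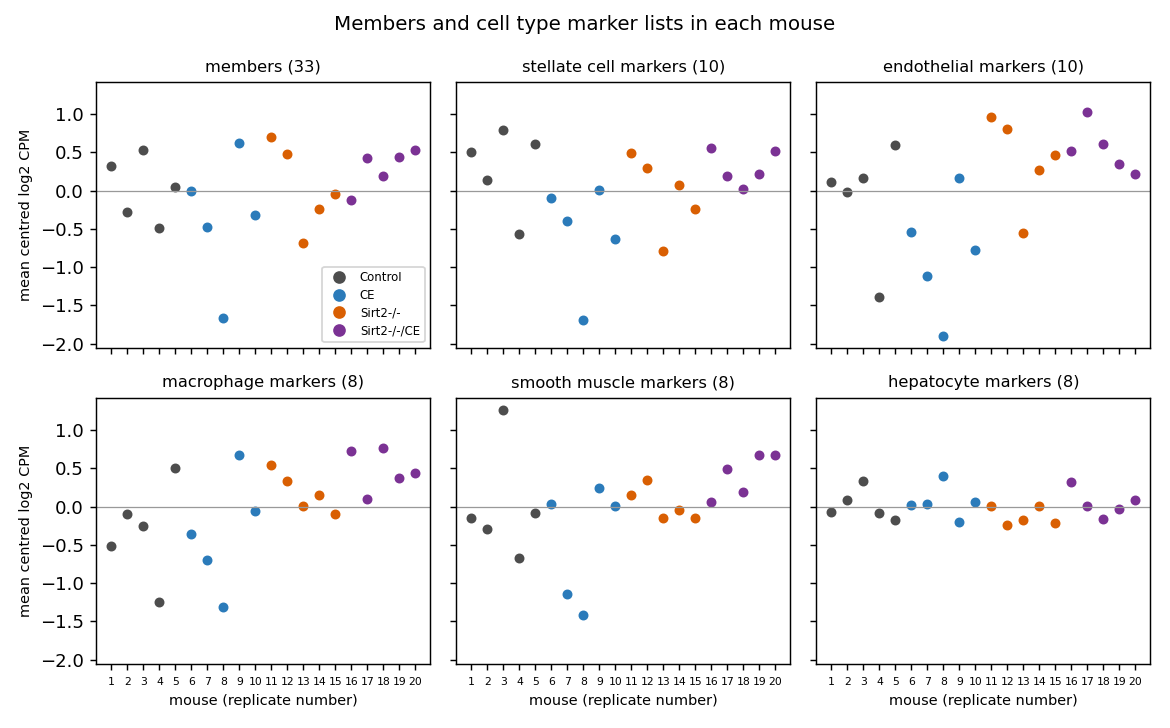
Mean centred log2 CPM per mouse of the 33 tested genes and of 5 lists of cell type markers (number of genes in brackets), with mice along the horizontal axis. CE replicate 8 lies lowest for the 33 genes (-1.66) and for the stellate, endothelial, macrophage and smooth muscle lists, and highest for hepatocyte markers (0.40).

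None of the 33 genes was called changed in any of 8 tests by the quasi-likelihood test of edgeR, with adjustment over the 15616 genes and a threshold of 0.05. In CE against Control, 0 of 33 were called, and the test called 0.0064% of all genes. In Sirt2-/- against Control it called 0 of 33 and 0.89% of all genes, in Sirt2-/-/CE against Sirt2-/- 0 and 0.0%, and in Sirt2-/-/CE against CE 0 and 0.0128%. The interaction of genotype and cold gave 0 of 33 and 0.0% of all genes, knockout against wild type averaged over treatments 0 and 0.186%, cold against unexposed averaged over genotypes 0 and 0.0%, and the test for any difference among the 4 groups 0 and 0.295%. DESeq2 called 1 of the 33, Mmp14, for the average of the knockout, where it called 2.03% of all genes, and 0 in the other tests, where it called 0.0448% to 3.89%. The voom method of limma with sample quality weights called Timp3 in CE against Control (3.46% of all genes), Col4a2 in Sirt2-/- against Control (5.8%) and for the average of the knockout (1.68%), and both genes in the test for any difference (5.03%). Standard errors of the log2 fold changes between pairs of groups ran from 0.22 for Fn1 to 0.83 for Lox, with medians of 0.37 to 0.38.

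At an unadjusted p under 0.05, 2 of 33 genes passed in CE against Control (10.7% of all genes did), 3 in Sirt2-/- against Control (14.9% of all genes), 1 in Sirt2-/-/CE against Sirt2-/- (7.25%) and 4 in Sirt2-/-/CE against CE (6.09%). For the interaction 1 passed (8.34% of all genes), for the knockout averaged over treatments 4 (13.8%), for cold averaged over genotypes 2 (9.48%) and for any difference 5 (14%). As shares of the 33 genes these counts are 6.06%, 9.09%, 3.03%, 12.1%, 3.03%, 12.1%, 6.06% and 15.2%. In Sirt2-/-/CE against CE all 4 were higher in the knockout, where 3.89% of all genes passed in that direction, and in the average of the knockout all 4 were higher too, against 8.01% of all genes. These counts moved with single mice and with the tool. In Sirt2-/-/CE against CE the 4 genes became 17 without CE replicate 9 (7.13% of all genes passed then), 1 when CE replicate 8 was left out (4.83%) and 9 when Sirt2-/-/CE replicate 16 was (5.53%). They became 7 without CE replicate 6 (6.61% of all genes), Sirt2-/- replicate 13 (6.32%) or Sirt2-/- replicate 14 (6.47%), and 2 without Sirt2-/-/CE replicate 17 (6.52%) or 20 (4.91%). They were 8 with DESeq2 (7.08% of all genes), 10 with voom (7.97%) and 13 or 14 with limma on log2 FPKM (7.7% and 8.11%). For the average of the knockout the 4 became 12 without CE replicate 9 (14% of all genes), 8 without Sirt2-/- replicate 13 (16.8%), and 7 without Control replicate 3 (12%) or Sirt2-/-/CE replicate 16 (12.8%). They were 7 with DESeq2 (15.2% of all genes), 13 with voom (18.9%), 9 with limma on log2 FPKM (19.1% to 19.2%) and 2 with the circadian clock score described below as a covariate (7.86%). In CE against Control the 2 became 6 without Control replicate 4 (13.3% of all genes) or CE replicate 9 (10.8%), 4 without CE replicate 6 (9.89%) and 6 with voom (20.8%). For the interaction the 1 gene became 5 without CE replicate 6 (8.39% of all genes) or Sirt2-/- replicate 11 (9.4%), and 3 without CE replicate 9 (8.09%) or Sirt2-/-/CE replicate 16 (8.44%). It became 2 without Control replicate 4, CE replicate 7 or 8, Sirt2-/- replicate 12 or 13 or Sirt2-/-/CE replicate 19 and with DESeq2 (7.59% to 10.5% of all genes), and 0 with voom (13.3%) and with limma on log2 FPKM (8.5% and 8.62%). The 1 gene of Sirt2-/-/CE against Sirt2-/- became 0 with voom, with library size alone and with limma on log2 FPKM (6.44% to 8.47% of all genes), and without Control replicate 1, Sirt2-/- replicate 11, 13, 14 or 15 or Sirt2-/-/CE replicate 19 or 20 (3.83% to 8.97%). For cold averaged over genotypes the 2 became 4 with voom (14.1% of all genes), and 1 with the clock covariate (12.2%), with limma on log2 FPKM (9.59% and 9.66%) and without CE replicate 9 (9.76%).

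The median log2 fold change of the 33 genes was -0.31 in CE against Control, where 24 of 33 lay below 0 (51.0% of all genes did). It was 0.02 in Sirt2-/- against Control, with 19 of 33 above 0 (51.7% of all genes), and 0.18 in Sirt2-/-/CE against Sirt2-/-, with 22 of 33 above 0 (50.9%). In Sirt2-/-/CE against CE it was 0.48, with 28 of 33 above 0 (52.6% of all genes), and for the knockout averaged over treatments 0.28, with 27 of 33 above 0 (53.6%). In that average all 10 endothelial markers were higher at an unadjusted p under 0.05, with a median of 0.78, and so were 6 of 8 macrophage markers, with a median of 0.59, and their part in the levels of the 33 genes was not tested. The interaction had a median of 0.50, with 26 of 33 above 0 (50.2% of all genes), and cold averaged over genotypes -0.03, with 18 of 33 below 0 (48.7%). Medians of all genes lay between -0.01 and 0.02. The comparisons share groups, so their medians are not separate pieces of evidence. Single mice moved these medians: in CE against Control the median was -0.14 when CE replicate 8 was left out, -0.12 when Control replicate 3 was and -0.54 when CE replicate 9 was. Leaving out CE replicate 9 gave 0.79 in Sirt2-/-/CE against CE, 0.86 for the interaction and 0.43 for the average of the knockout, and leaving out CE replicate 8 gave 0.32, 0.25 and 0.20 in the same order. With voom the median of the 33 genes was 0.24 in Sirt2-/- against Control, with 27 of 33 above 0. In Sirt2-/-/CE against Sirt2-/- it was 0.06 with voom, with 17 of 33 above 0. Medians of all genes were 0.0097 and 0.0041 there.

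**Figure D4:**
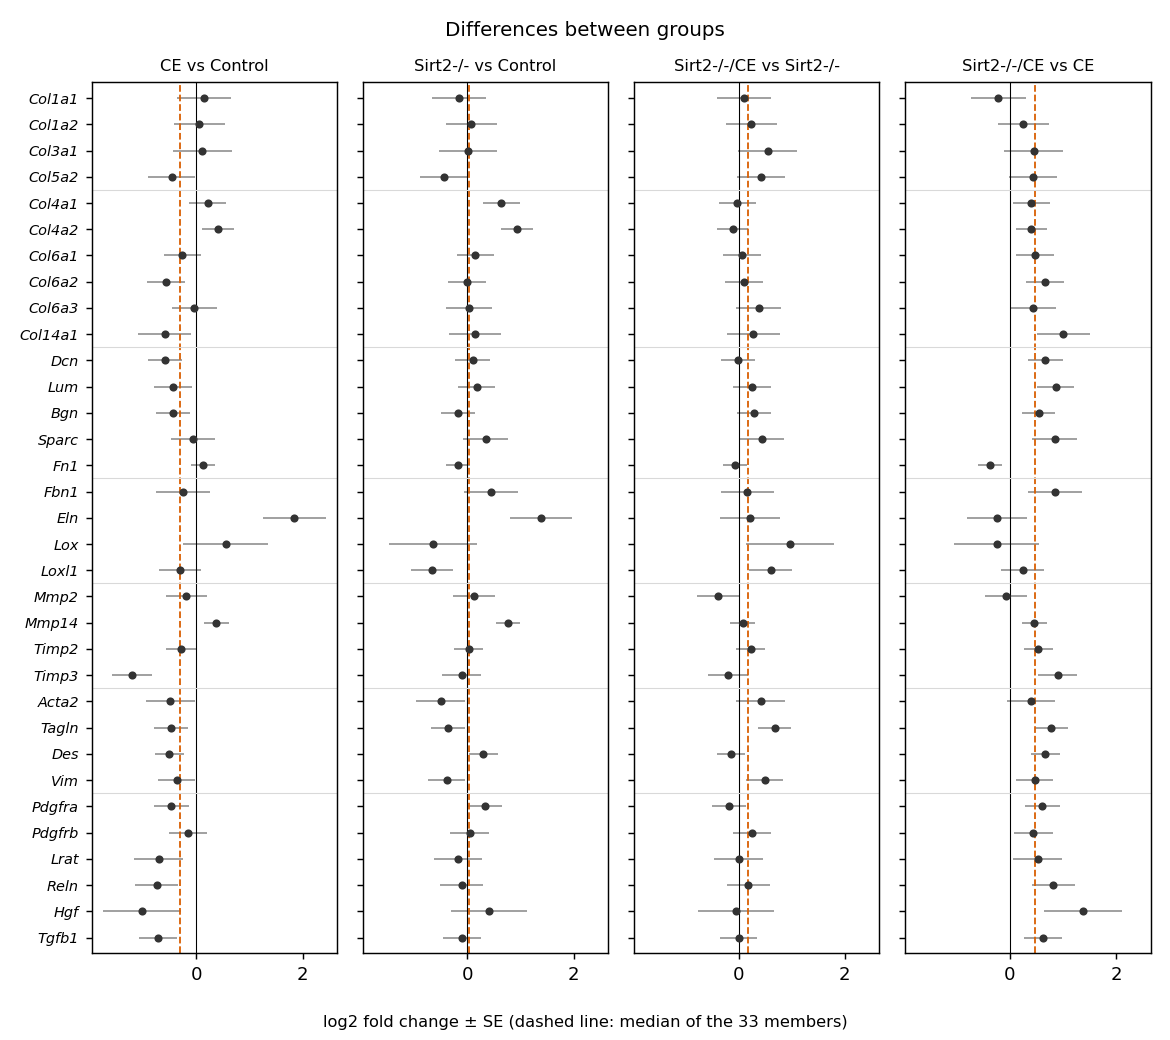
Log2 fold change of 33 genes (points, with SE as horizontal bars) in 4 comparisons between pairs of groups, with a dashed line at the median of the 33 genes. The median lies at -0.31 in CE vs Control and at 0.48 in Sirt2-/-/CE vs CE, and Eln and Timp3 lie farthest from 0 in the first panel.

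The fibrillar collagens showed no difference beyond the spread between mice. Col1a1 and Col1a2 encode collagen I, Col3a1 collagen III and Col5a2 a chain of collagen V, which sets the width of fibrils. Group means of Col1a1 were 6.22 ± 1.86 CPM in Control, 6.90 ± 4.85 in CE, 5.56 ± 4.31 in Sirt2-/- and 5.96 ± 3.14 in Sirt2-/-/CE mice (SD, n = 5). Its 2 highest mice were CE replicate 9 at 14.7 CPM and Sirt2-/- replicate 11 at 11.7 CPM, and its lowest were CE replicate 8 at 1.70 CPM and Sirt2-/- replicate 13 at 1.75 CPM. Col3a1 had 19 ± 6.08 CPM in Control and 28.0 ± 11.9 CPM in Sirt2-/-/CE mice, and ran from 3.14 CPM in CE replicate 8 to 49.9 CPM in CE replicate 9. In none of the 7 comparisons with a direction did a fibrillar collagen pass an unadjusted p under 0.05. Their median log2 fold change was 0.08 in CE against Control, -0.07 in Sirt2-/- against Control, 0.33 in Sirt2-/-/CE against Sirt2-/- and 0.35 in Sirt2-/-/CE against CE. These medians turned on single mice: with CE replicate 9 left out the first was -0.53 and the last 0.88, and with CE replicate 8 left out they were 0.35 and 0.09. The others rest on Sirt2-/- mice, whose mean centred log2 CPM over these genes ran from -1.24 in replicate 13 to 1.02 in replicate 11.

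Among the other collagen chains, Col4a2 had the lowest p in Sirt2-/- against Control, for the average of the knockout and for any difference among the groups. Col4a1 and Col4a2 encode the chains of the collagen IV network in basement membranes, Col6a1 to Col6a3 those of the beaded filaments of collagen VI, and Col14a1 a chain that decorates fibrils. Col4a2 had 13.2, 10.8, 14.8, 13 and 13.6 CPM in the 5 Control mice. The Sirt2-/- mice had 36, 27.8, 18.2, 18.4 and 24.2 CPM, the CE mice 9.92, 16, 6.81, 33.9 and 20.1 CPM, and the Sirt2-/-/CE mice 22.7, 27.8, 21.5, 20 and 23 CPM. Every Sirt2-/- mouse lay above every Control mouse, whereas the CE mice reached from below the lowest Control to near the highest Sirt2-/- value. It was the 1 gene of the 33 whose groups did not overlap upwards in Sirt2-/- against Control, where 1.45% of all genes did so. Its log2 fold change there was 0.93 (SE 0.30), with an unadjusted p of 0.00545 and an adjusted p of 0.133 by edgeR, and for the knockout averaged over treatments it was 0.67 (SE 0.21, adjusted p = 0.178). Without both CE replicate 8 and CE replicate 9, the lowest and the highest CE mouse, the former adjusted p was 0.0482 by edgeR. That setting was chosen after the data were seen. All 10 endothelial markers also had fold changes above 0 in Sirt2-/- against Control, with a median of 0.35. So did all 8 macrophage markers, with a median of 0.40. In both lists 0 markers passed an unadjusted p under 0.05 there, and their part in the level of Col4a2 was not tested.

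Col4a1, its partner chain, had 18.3 ± 3.95 CPM in Control and 28.6 ± 9.92 CPM in Sirt2-/- mice, with overlapping ranges and a log2 fold change of 0.64 (SE 0.35, adjusted p = 0.405 by edgeR). The genes stand head to head on chromosome 8 of GRCm38, Col4a1 at chr8:11198423-11312826 on the reverse strand and Col4a2 at chr8:11312805-11449287 on the forward strand, with starts 21 bases apart and 22 exon bases in common. The handling of strand in the counting is not given in the sources used here, so reads in the shared bases could fall to either gene. The collagen VI chains had group means of 2.52 to 5.62 CPM and overlapped in all comparisons. Col14a1 had 28.7 ± 8.93 CPM in Control, 19 ± 13.7 in CE, 31.5 ± 24 in Sirt2-/- and 38.2 ± 8.51 in Sirt2-/-/CE mice. Its log2 fold change in Sirt2-/-/CE against CE was 1.01 (SE 0.50, adjusted p = 0.822 by edgeR). All 6 chains of this group had fold changes above 0 in that comparison, with a median of 0.45, which became 0.83 when CE replicate 9 was left out and 0.27 when CE replicate 8 was.

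Of the proteoglycans and glycoproteins, Lum was among the genes with the lowest p in Sirt2-/-/CE against CE. Lum encodes lumican, a proteoglycan that regulates the assembly of collagen fibrils. It had 4.95, 2.56, 1.02, 6.81 and 4.82 CPM in CE mice and 5.06, 7.36, 6.28, 7.36 and 10.7 CPM in Sirt2-/-/CE mice. Control mice had 6.61, 4.43, 5.92, 3.94 and 6.42 CPM, and Sirt2-/- mice 7.99, 7.77, 3.47, 5.94 and 5.66 CPM. CE replicates 7 and 8 lay lowest and CE replicate 9 lay within the Sirt2-/-/CE range, so the groups overlapped. Lum had a log2 fold change of 0.86 (SE 0.35), with an unadjusted p of 0.0243 and an adjusted p of 0.699 by edgeR. It was 0.62 without CE replicate 8. Dcn had 90.5 ± 25.1 CPM in Control and 60.2 ± 31.4 CPM in CE mice, from 18.1 CPM in CE replicate 8 to 127 CPM in Sirt2-/- replicate 11. Bgn, Sparc and Dcn had log2 fold changes of 0.54, 0.84 and 0.67 in Sirt2-/-/CE against CE, with SE of 0.32, 0.42 and 0.33, and adjusted p-values of 0.897, 0.826 and 0.822 by edgeR. Fn1 differed from the other genes of this group in having its lowest mean in the Sirt2-/-/CE mice, 1100 ± 318 CPM, against 1420 ± 208 CPM in CE and 1300 ± 266 CPM in Control mice. Its log2 fold change in Sirt2-/-/CE against CE was -0.37 (SE 0.22, adjusted p = 0.909 by edgeR).

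Eln had the largest fold change of the 33 genes in CE and in Sirt2-/- against Control, at low counts. It had 0.664, 0.283, 1.23, 0.764 and 0.425 CPM in Control and 1.42, 0.441, 0.961, 6.92 and 2.34 CPM in CE mice. The Sirt2-/- mice had 2.0, 2.26, 0.465, 1.80 and 2.25 CPM and the Sirt2-/-/CE mice 1.46, 1.48, 2.25, 3.43 and 1.59 CPM. CE replicate 9 was far above the other CE mice, and CE replicates 7 and 8 and Sirt2-/- replicate 13 lay within the Control range. In CE against Control its log2 fold change was 1.85 (SE 0.59, unadjusted p = 0.00522, adjusted p = 0.252 by edgeR), and it was 0.94 without CE replicate 9. In Sirt2-/- against Control it was 1.38 (SE 0.59, adjusted p = 0.265 by edgeR), for the interaction -1.63 (SE 0.81, adjusted p = 0.606), and for cold averaged over genotypes 1.03 (SE 0.41, adjusted p = 0.444). Without CE replicate 9 the last 2 values were -0.72 and 0.58. With limma on log2(FPKM + 1), which compresses low values, the 4 values were 0.48, 0.44, -0.42 and 0.27.

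Loxl1, an oxidase that cross-links elastin, was among the genes with the lowest p in Sirt2-/-/CE against Sirt2-/-. Its values were 1.13, 1.41, 0.656, 0.599 and 0.860 CPM in Sirt2-/- and 0.521, 0.968, 1.46, 2.41 and 1.72 CPM in Sirt2-/-/CE mice, beside 1.82, 0.85, 2.24, 1.22 and 1.30 CPM in Control and 1.64, 0.799, 0.594, 1.76 and 1.18 CPM in CE mice. The highest mouse was Sirt2-/-/CE replicate 19 and the lowest Sirt2-/-/CE replicate 16, so this group spanned the whole range. Its fold change on the log2 scale was 0.60 (SE 0.40, adjusted p = 0.804 by edgeR), and 0.32 without Sirt2-/-/CE replicate 19. With limma on log2(FPKM + 1) and log2(FPKM + 0.1) it was 0.13 and 0.34. Fbn1, whose product forms the microfibrils that carry elastin, had 1.70 ± 0.402 CPM in Control and 2.59 ± 0.823 CPM in Sirt2-/-/CE mice. Of its 12128 exon bases 2442 overlap Gm9913 on the other strand, a gene with at most 1 count in any library. Lox had group means of 0.162 to 0.374 CPM, and its standard errors of 0.80 to 0.83 in the pairwise comparisons were the largest of the 33 genes.

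Mmp14 had the lowest p of the 33 genes in Sirt2-/- against Control, for the knockout averaged over treatments and for any difference among the groups. It encodes a collagenase of the cell membrane that also activates pro-MMP2, and lies at chr14:54431612-54445364 on the forward strand. It had 16.4, 15, 20.8, 13 and 17.7 CPM in Control and 25.8, 20.3, 16.2, 43.7 and 34.6 CPM in Sirt2-/- mice. CE mice had 15.2, 25.6, 18.2, 18.1 and 30.4 CPM, and Sirt2-/-/CE mice 34.9, 27.0, 25.0, 28.8 and 32.3 CPM. Sirt2-/- replicates 12 and 13 lay within the Control range and replicates 14 and 15 were the highest, so these groups overlapped, and in cold CE replicates 7 and 10 reached the Sirt2-/-/CE mice. Mmp14 had a log2 fold change of 0.76 (SE 0.23) in Sirt2-/- against Control, with an unadjusted p of 0.00392 and an adjusted p of 0.113 by edgeR, and 0.46 (SE 0.23, adjusted p = 0.837) in Sirt2-/-/CE against CE. Averaged over treatments it was 0.61 (SE 0.17), with an unadjusted p of 0.0014 and an adjusted p of 0.117, and for any difference the adjusted p was 0.195. Without Sirt2-/- replicate 13 the adjusted p was 0.0392 in Sirt2-/- against Control and 0.0477 for the average, and without Sirt2-/- replicate 14 or 15 it was 0.298 or 0.303 and 0.202 or 0.241, with log2 fold changes of 0.55 or 0.68 in Sirt2-/- against Control.

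Sirt2-/- replicates 14 and 15, the highest of their group for Mmp14, were also the 2 mice with the lowest circadian clock scores of all 20. This score, the average centred log2 CPM of 5 genes of the output arm (Per3, Dbp, Ciart, Nr1d2, Tef) less the average of 3 of the positive arm (Clock, Npas2, Arntl), was -5.72 and -6.48 in these mice. It was 0.58 to 2.17 in the other Sirt2-/- mice and 1.33 to 3.36 in Control mice. CE replicate 9 and Sirt2-/-/CE replicate 19 also had low scores, -4.52 and -4.69, with Mmp14 at 18.1 CPM, within the Control range, in the former and at 28.8 CPM, above it, in the latter. With this score as a covariate, the log2 fold change of Mmp14 in Sirt2-/- against Control was 0.44 (adjusted p = 0.836 by edgeR), that of Col4a2 0.79 (adjusted p = 0.599) and that of Eln 0.59 (adjusted p = 0.945). The fit with the covariate called 0 of 15616 genes in Sirt2-/- against Control, and the main fit called 139. The covariate also moved Eln in CE against Control from 1.85 to 0.99 and its interaction from -1.63 to -0.76. The order of dissection over the day is not given in the sources used here, and its part in these values was not tested.

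Timp3, an inhibitor bound to the matrix that blocks Mmp14 among other proteases, was the gene with the lowest p in CE against Control. It had 35.7, 29.5, 39.3, 14.8 and 33 CPM in Control and 21.4, 14.9, 5.17, 17.4 and 7.10 CPM in CE mice. The Sirt2-/- mice had 38.4, 42.1, 17, 16.8 and 27.1 CPM and the Sirt2-/-/CE mice 15.9, 41.9, 24, 20.6 and 20.6 CPM. Control replicate 4 lay among the CE mice and the other Control mice lay above all of them, so the groups overlapped through 1 mouse. Timp3 had a log2 fold change of -1.21 (SE 0.38, unadjusted p = 0.00441, adjusted p = 0.241 by edgeR), and -1.0 without CE replicate 8. In Sirt2-/-/CE against CE it was 0.90 (SE 0.37, adjusted p = 0.71 by edgeR), for the interaction 1.01 (SE 0.53, adjusted p = 0.632), and for cold averaged over genotypes -0.70 (SE 0.26, adjusted p = 0.421). Of the 8144 exon bases of Timp3, 1733 overlap Syn3 on the other strand, and Timp3 held 84.7% to 100% of the counts of this pair. Timp2 had group means of 6.54 to 9.51 CPM and Mmp2, a gelatinase, of 1.87 to 2.44 CPM, with no p under 0.05 in any comparison.

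**Figure D5:**
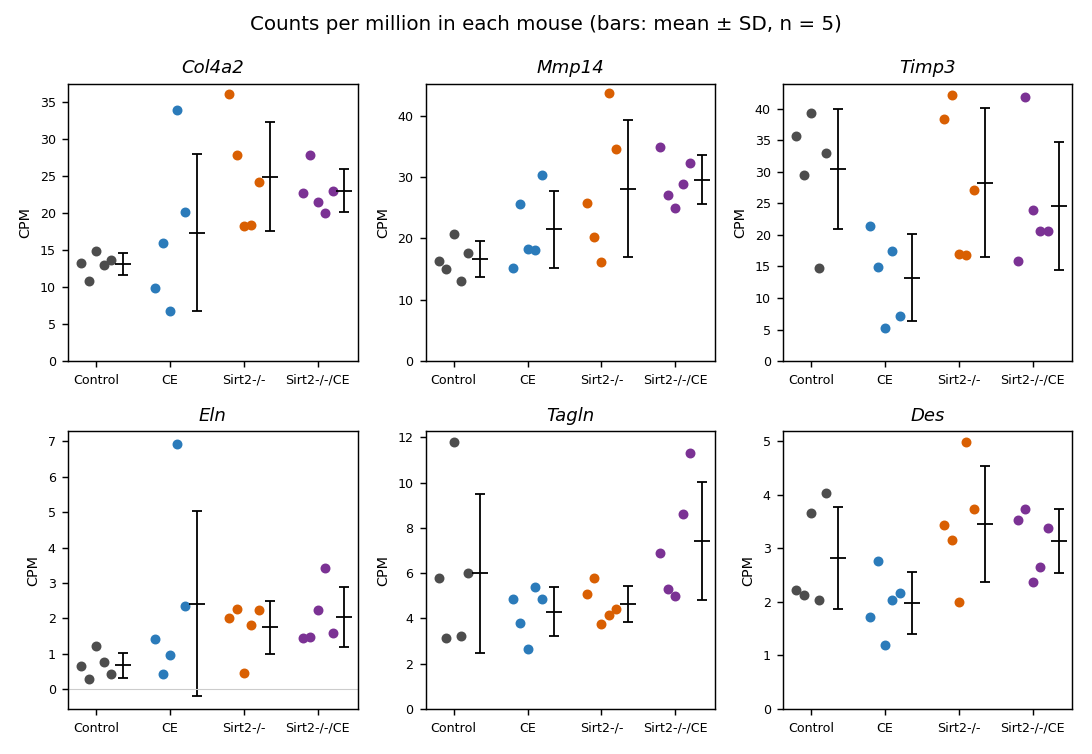
CPM of 6 genes in each mouse (points) by group, with the mean ± SD of 5 mice beside each group. All 5 Sirt2-/- points lie above the Control points for Col4a2, 1 CE point stands far above the rest for Eln at 6.92 CPM, and the groups overlap in the other 4 genes.

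The contractile and cytoskeletal genes mark myofibroblasts and vascular smooth muscle. Tagln encodes transgelin, a smooth muscle protein that binds actin, and had the lowest p of the 33 genes in Sirt2-/-/CE against Sirt2-/-, in Sirt2-/-/CE against CE and for the interaction. It had 5.79, 3.14, 11.8, 3.24 and 6.02 CPM in Control, 4.85, 3.80, 2.63, 5.37 and 4.85 CPM in CE, and 5.06, 5.77, 3.77, 4.14 and 4.42 CPM in Sirt2-/- mice. The Sirt2-/-/CE mice had 6.90, 5.29, 4.99, 8.61 and 11.3 CPM. Of these, replicates 17 and 18 lay within the Sirt2-/- and CE ranges and replicates 16, 19 and 20 above them, while the highest mouse of all was Control replicate 3. The log2 fold change was 0.68 (SE 0.32, unadjusted p = 0.0449, adjusted p = 0.679 by edgeR) against Sirt2-/- and 0.78 (SE 0.32, unadjusted p = 0.0226, adjusted p = 0.693) against CE. For the interaction it was 1.15 (SE 0.45, unadjusted p = 0.0181, adjusted p = 0.503 by edgeR), and 0.77 without Control replicate 3. With voom the value against Sirt2-/- was 0.39 and that of the interaction 0.53, and with limma on log2(FPKM + 1) they were 0.43 and 0.71. Of its 1988 exon bases 1241 overlap the antisense gene Gm48529, which is not among the genes of the table, and 108 overlap Pcsk7, which held more counts than Tagln in every library, so the values of Tagln are uncertain where strand was not used.

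Des encodes desmin, an intermediate filament protein that marks stellate cells in rodents. It had 1.71, 2.76, 1.19, 2.04 and 2.16 CPM in CE and 3.52, 3.74, 2.37, 2.65 and 3.38 CPM in Sirt2-/-/CE mice, with 2.22, 2.13, 3.65, 2.04 and 4.03 CPM in Control and 3.43, 3.15, 1.99, 4.99 and 3.73 CPM in Sirt2-/- mice. CE replicate 7 lay above the 2 lowest Sirt2-/-/CE mice, and the other CE mice lay below all of them. The log2 fold change was 0.67 (SE 0.27, unadjusted p = 0.0237, adjusted p = 0.699 by edgeR) in Sirt2-/-/CE against CE, 0.48 (SE 0.19, unadjusted p = 0.0202, adjusted p = 0.269) for the knockout averaged over treatments and -0.33 (SE 0.19, adjusted p = 0.617) for cold averaged over genotypes. With limma on log2(FPKM + 1) these were 0.34, 0.28 and -0.16, and with voom the last was -0.22. Vim had 19.4, 14.9, 23.9, 13.9 and 21.5 CPM in Control and 27.4, 12.5, 4.07, 16.7 and 11.8 CPM in CE mice. It had 21.2, 16.3, 7.68, 14.9 and 11.2 CPM in Sirt2-/- and 22.3, 16, 16.8, 17.2 and 28.0 CPM in Sirt2-/-/CE mice, and all groups overlapped. Its log2 fold change in Sirt2-/-/CE against Sirt2-/- was 0.49 (SE 0.34, adjusted p = 0.823 by edgeR), and 0.23 with voom. Acta2, smooth muscle actin and the usual marker of activated stellate cells, had 0.933 to 9.64 CPM over the 20 mice, with Control replicate 3 the highest and CE replicate 8 the lowest. Its group means were 3.82 ± 3.28 CPM in Control, 2.71 ± 1.60 in CE, 2.68 ± 0.857 in Sirt2-/- and 3.57 ± 0.913 in Sirt2-/-/CE mice, and its log2 fold changes between pairs of groups lay from -0.51 to 0.41 with standard errors of 0.46. In Control replicate 3 the 8 smooth muscle markers were also the highest of the 20 mice, at a mean centred log2 CPM of 1.26.

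The receptors, retinoid and growth factor genes were the group with the lowest median in CE against Control, -0.71, and all 6 of its genes lay below 0. Without CE replicate 8, the lowest mouse of this group of genes, the median was -0.47, with 5 of 6 below 0. Tgfb1, which encodes transforming growth factor beta 1, was 1 of the 3 genes with the lowest p in that comparison. It had 9.23, 6.52, 8.26, 4.02 and 11.9 CPM in Control and 8.98, 3.20, 1.78, 5.97 and 4.32 CPM in CE mice. The Sirt2-/- mice had 9.99, 9.43, 4.86, 8.54 and 4.47 CPM and the Sirt2-/-/CE mice 10.8, 7.75, 6.76, 6.13 and 5.85 CPM. CE replicates 7 and 8 lay below the lowest Control mouse and CE replicate 6 above the third highest, so the groups overlapped. The log2 fold change was -0.72 (SE 0.36, unadjusted p = 0.0594, adjusted p = 0.498 by edgeR), and -0.51 without CE replicate 8. Lrat had 12.7 ± 2.89 CPM in Control and 7.78 ± 5.09 CPM in CE mice, where it ran from 1.33 CPM in replicate 8 to 12.7 CPM in replicate 6, with a log2 fold change of -0.70 (SE 0.46, adjusted p = 0.642 by edgeR). In Sirt2-/- mice Lrat had 11.2 ± 6.69 CPM and a log2 fold change of -0.18 against Control (SE 0.46, adjusted p = 0.90 by edgeR). Reln, which encodes the secreted protein reelin, had 31.4 ± 11.4 and 18.7 ± 9.39 CPM in these groups, with a log2 fold change of -0.75 (SE 0.40, adjusted p = 0.546 by edgeR). Hgf varied most, from 0.283 CPM in CE replicate 8 to 11.5 CPM in Sirt2-/-/CE replicate 17, and its log2 fold changes of -1.03 in CE against Control and 1.38 in Sirt2-/-/CE against CE had standard errors of 0.73 and 0.74. Pdgfra and Pdgfrb, the receptors of platelet-derived growth factors, had group means of 2.62 to 4.55 and of 3.88 to 5.28 CPM. In the 10 stellate cell markers outside the 34 genes the median log2 fold change in CE against Control was -0.71 as well, with all 10 below 0, 4 at an unadjusted p under 0.05 and 0 called by edgeR. Markers of other cell types lay as low there: the 10 endothelial markers had a median of -0.70, with all 10 below 0 and 4 at an unadjusted p under 0.05, and the 8 smooth muscle markers one of -0.67, with all 8 below 0 and 2 at that limit. The medians of 8 macrophage and 8 hepatocyte markers were 0.06 and 0.03. In Sirt2-/-/CE against CE the median of the 10 stellate cell markers was 0.75, with all 10 above 0 and 5 at an unadjusted p under 0.05, while the 10 endothelial markers had a median of 1.20 and all 10 passed that limit. There the medians were 0.85 for 8 smooth muscle, 0.78 for 8 macrophage, 0.09 for 6 portal fibroblast and mesothelial, -0.16 for 7 bile duct and -0.00 for 8 hepatocyte markers.

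The promoters of Mmp14, the gene with the lowest p for the knockout, and of Lrat and Reln, the stellate cell genes whose levels moved together across mice as given below for pairs, are shown as the 250 bases before the RefSeq start in GRCm38.p6. They were taken from the RefSeq-derived promoter table, which held 24 promoters of 22 of the 34 genes. Capitals mark the letters CCAAT and GGGCGG, which are the CCAAT box and the GC box to which Sp1-type factors bind, on either strand (ATTGG and CCGCCC on the other). The Mmp14 window is chr14:54431348-54431597 on the forward strand, the Lrat window chr3:82903975-82904224 on the reverse strand and the Reln window chr5:22344706-22344955 on the reverse strand.
Mmp14: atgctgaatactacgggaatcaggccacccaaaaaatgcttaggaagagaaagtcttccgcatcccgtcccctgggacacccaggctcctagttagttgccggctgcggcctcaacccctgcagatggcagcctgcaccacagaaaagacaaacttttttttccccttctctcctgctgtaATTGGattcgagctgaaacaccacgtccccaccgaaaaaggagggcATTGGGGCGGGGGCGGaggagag
Lrat: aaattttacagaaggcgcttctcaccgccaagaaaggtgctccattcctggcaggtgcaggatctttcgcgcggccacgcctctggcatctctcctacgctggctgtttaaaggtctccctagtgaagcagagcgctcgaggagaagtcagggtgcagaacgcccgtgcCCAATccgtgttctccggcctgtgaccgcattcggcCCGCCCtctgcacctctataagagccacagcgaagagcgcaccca
Reln: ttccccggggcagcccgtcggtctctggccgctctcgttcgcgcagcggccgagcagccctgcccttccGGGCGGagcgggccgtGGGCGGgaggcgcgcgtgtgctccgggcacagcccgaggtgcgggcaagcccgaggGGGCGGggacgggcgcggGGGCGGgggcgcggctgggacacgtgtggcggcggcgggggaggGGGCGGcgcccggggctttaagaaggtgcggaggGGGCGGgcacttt
The Mmp14 window holds ATTGG 65 and 19 bases and GGGCGG 14 and 8 bases before the start, counted from the motif base nearest to it, and the nearer ATTGG overlaps a GGGCGG by 1 base. Lrat holds CCAAT 77 and CCGCCC 40 bases before its start, and Reln holds 6 copies of GGGCGG in a window of 80.0% G and C. Over the 24 promoters, GGGCGG occurred in 14 (58.3%), against 32.7% of the 32851 promoters of the table, in windows whose median G and C content was 59.2% against 52.4%. CCAAT occurred in 8 of 24 (33.3%) against 33.9% of all promoters, and TATAAA in 2 of 24 (8.33%) against 12.4%. The CArG box, the site of serum response factor, occurred in 0 of 24 against 1.47%. These matches are descriptions of letters in the window.

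Genes of the wider matrix pathway were read from 7 lists with 96 genes, of which 88 were tested. In CE against Control 0 of the 88 were called by edgeR and 12 were higher and 11 lower at an unadjusted p under 0.05 (5.5% and 5.22% of all genes). In Sirt2-/- against Control 2 were called (0.89% of all genes), with 6 higher and 2 lower at the unadjusted limit (8.14% and 6.78%). In Sirt2-/-/CE against Sirt2-/- and against CE 0 were called, with 2 and 12 higher (3.96% and 3.89% of all genes) and 3 and 3 lower (3.29% and 2.2%). The test for any difference among the 4 groups called 1 of the 88, a gene of the other matrix proteases and inhibitors (0.295% of all genes). P3h1, which encodes prolyl 3-hydroxylase 1 and modifies collagen chains in the endoplasmic reticulum, rose in Sirt2-/- against Control. It had 7.95, 8.32, 6.14, 11.8 and 9.0 CPM in Control and 18.2, 17.3, 10.2, 21.4 and 20.5 CPM in Sirt2-/- mice, with Sirt2-/- replicate 13 alone inside the Control range, and a log2 fold change of 1.02 (SE 0.21, adjusted p = 0.0352 by edgeR). With the clock score as covariate it was 0.89 and no longer called (adjusted p = 0.288 by edgeR). That fit called 0 of 15616 genes in this comparison, against 139 in the main fit. The call of P3h1 was also lost without Control replicate 1, 2, 3 or 5 or Sirt2-/- replicate 12, 14 or 15, with adjusted p-values of 0.0581 to 0.11 by edgeR. Those fits called 0.0315% to 0.284% of all genes in this comparison, against 0.89% with all mice. In CE mice P3h1 had 14.9, 16.9, 14.1, 11.8 and 21.8 CPM, and its log2 fold change of 0.88 (SE 0.21) in CE against Control had an adjusted p of 0.166. Collagen processing was the 1 list of the 7 with a positive median in CE against Control, 0.33, and 7 of its 19 genes were higher at an unadjusted p under 0.05, as were 5.5% of all genes. Among the genes of transforming growth factor beta signalling 5 of 16 were lower at that limit and 1 higher, and among the other proteases and inhibitors 3 of 12 were lower and 1 higher, beside 5.22% of all genes lower. Of the other collagen chains 3 of 13 were higher, of the partners of the elastic fibre 2 of 11 lower, of the basement membrane genes 1 of 11 lower and of the growth factor genes 0 of 6 in either direction. The median there was -0.25 for 13 other collagen chains, -0.25 for 11 basement membrane genes, -0.39 for 11 partners of the elastic fibre, -0.39 for 12 other proteases and inhibitors, -0.34 for 16 genes of transforming growth factor beta signalling and -0.21 for 6 genes of platelet-derived and hepatocyte growth factor signalling. In Sirt2-/- against Control the 7 medians lay between -0.37 for other collagen chains and 0.27 for collagen processing. Hgfac, which encodes the protease that activates hepatocyte growth factor and is made by hepatocytes, fell in Sirt2-/- against Control, from 158 to 200 CPM to 40.8 to 128 CPM without overlap, with a log2 fold change of -1.08 (SE 0.23, adjusted p = 0.0382 by edgeR). In this comparison 2.16% of all genes did not overlap downwards. The lowest mice for Hgfac were Sirt2-/- replicates 14 and 15, at 65.7 and 40.8 CPM, which had the lowest clock scores. With that score as covariate the value was -0.76 and no longer called (adjusted p = 0.303 by edgeR), in the fit that called 0 of 15616 genes here. The call of Hgfac was also lost without CE replicate 7 or any of the 7 mice named for P3h1, with adjusted p-values of up to 0.0968 by edgeR. Those fits called 0.0315% to 0.353% of all genes in this comparison. The groups in cold overlapped, at 133 to 167 CPM in CE and 105 to 211 CPM in Sirt2-/-/CE mice.

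Correlations across mice were computed for 16 pairs of genes, chosen for shared roles, with no comparison pairs. For each pair, log2 CPM was centred on the mean of each group, and p-values came from 100000 permutations of mice within groups and were adjusted over the 16 pairs by the Benjamini-Hochberg method. Col1a1 and Col1a2 had Pearson's r = 0.95 and Spearman's rho = 0.96 over 20 mice (permutation p = 1e-05 for both, the smallest that these permutations can give, adjusted p = 0.00016 and 0.000107), and r = 0.93 without the 2 mice farthest from the median of Col1a1. Lrat and Reln had r = 0.91 and rho = 0.93 (permutation p = 4e-05 and 3e-05, adjusted p = 0.000213 and 0.00012), with r = 0.92 without 2 mice. Col4a1 and Col4a2 had r = 0.88 and rho = 0.76 (permutation p = 0.00067 and 0.00277, adjusted p = 0.00119 and 0.00554), with r = 0.70 without CE replicates 8 and 9. Acta2 and Tagln had r = 0.81 and rho = 0.79 (permutation p = 8e-05 and 0.00027, adjusted p = 0.000256 and 0.000773), with r = 0.67 without Control replicate 3 and CE replicate 8. Acta2 and Des, the other pair of contractile or filament genes, had r = 0.48 and rho = 0.41 (permutation p = 0.0656 and 0.1, adjusted p = 0.0807 and 0.123), and r = 0.28 without the same mice.

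Of the other 11 pairs, 8 passed an adjusted p under 0.05 for r and for rho, with r from 0.59 for Mmp2 with Timp2 to 0.94 for Col1a1 with Col3a1. Eln with Fbn1 was nearest to the limit (r = 0.64, rho = 0.63, permutation p = 0.037 and 0.0128, adjusted p = 0.0494 and 0.0205), with r = 0.48 without CE replicates 7 and 9. The pairs that did not pass were Lox with Loxl1 (r = 0.39, rho = 0.34, permutation p = 0.107 and 0.185, adjusted p = 0.122 and 0.212), Mmp2 with Mmp14 (r = -0.14, rho = -0.18, permutation p = 0.608 and 0.489, adjusted p = 0.608 and 0.489) and Fn1 with Vim (r = -0.23, rho = -0.22, permutation p = 0.253 and 0.38, adjusted p = 0.27 and 0.405).  The values of a mouse come from 1 library, so each r also holds what moves all genes of that library together.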

How the data were processed

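Liver RNA of 20 mice was measured by RNA-seq, in 1 library per mouse. The deposited table holds raw read counts and FPKM, both made by the authors. The labels give the build mm10, and the aligner, the counter and the handling of strand are not given in the sources used here. Lines without a gene (9) were left out. Counts were tested with edgeR 4.0.16 in R 4.3.3: TMM scaling, a filter on low counts (minimum count 10, minimum total 15), a quasi-likelihood fit over 4 groups of 5 mice, and Benjamini-Hochberg adjustment over 15616 genes with a threshold of 0.05. Log2 CPM used a prior count of 2. FPKM served for levels between genes, and in an alternative with limma 3.58.1 on log2(FPKM + 1) or + 0.1. Other alternatives were DESeq2 1.42.0, voom, other scalings and filters, a clock covariate and leaving out mice. The code was tested on simulated data. Named genes with values of every mouse are the 3 with the lowest p in each of 7 comparisons. The members and gene lists were chosen with earlier results of these data known. Gene positions are from GENCODE on GRCm38 and promoters from RefSeq. Depth was 35499796 to 53917339 counts. Of 6 pancreas markers 2 passed the filter, with median log2 fold changes from -1.26 to 0.64 between pairs of groups, and the single adipose and skeletal muscle marker that passed was not called. The adipose marker had log2 fold changes of -1.81 in Sirt2-/- against Control and 2.40 for the interaction, both at an unadjusted p under 0.05 by edgeR. Results on some genes of the lists are not reported here.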

Additional observations from a re-analysis of the deposited data

Results flagged for a closer look

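In 132 groups of 5 mice (33 genes in 4 groups), the gap between the most extreme mouse and its nearest neighbour was divided by the range of the group, both on the log2 CPM scale and not on the CPM printed here, and 4 groups exceeded the critical value of 0.71. Chance alone gives about 1 in 20, or 6.6 groups. Eln in Sirt2-/- replicate 13 was the lowest of its group at 0.465 CPM, with a ratio of 0.853. Lrat in Sirt2-/-/CE replicate 17 was the highest of its group at 18.6 CPM, with a ratio of 0.855. Pdgfrb in CE replicate 8 was the lowest of its group at 0.961 CPM, with a ratio of 0.771, in the mouse that was also the lowest of 20 in 28 of the 33 genes. Bgn in Sirt2-/-/CE replicate 20 was the highest of its group at 70.3 CPM, with a ratio of 0.712.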

How the results depend on the processing

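The count of called genes among the 33 was 0 in each of the 8 tests and became 1 for the knockout averaged over treatments with DESeq2 (Mmp14, adjusted p = 0.0323, 2.03% of all genes called), voom (Col4a2, 0.0343, 1.68%) and scaling by library size only (Mmp14, 0.0486, 0.717%). In Sirt2-/- against Control it became 1 with voom (Col4a2, 0.0143, 5.8%), with library size only (Mmp14, 0.0456, 2.68%) and without both CE replicate 8 and CE replicate 9 (Col4a2, 0.0482, 0.45%), a setting chosen after seeing the data. With voom it became 1 in CE against Control (Timp3, 0.04, 3.46%) and 2 for any difference among groups (5.03%). When mice were left out 1 at a time it ranged from 0 to 1 in Sirt2-/- against Control and for the knockout averaged over treatments, and was 1 without Sirt2-/- replicate 13 (2.36% and 0.736% of all genes called). Scaling by library size alone moved the median log2 fold change of all genes to 0.16 in Sirt2-/- against Control, 0.11 in Sirt2-/-/CE against CE and 0.14 for the average of the knockout. The cause of these changes was not tested. Leaving out 1 mouse gave medians of the 33 genes from -0.54 to -0.12 in CE against Control, -0.24 (without Sirt2-/- replicate 11) to 0.18 (without Sirt2-/- replicate 13) in Sirt2-/- against Control, 0.02 (without Sirt2-/- replicate 13) to 0.41 (without Sirt2-/- replicate 11) in Sirt2-/-/CE against Sirt2-/-, 0.32 to 0.79 in Sirt2-/-/CE against CE, 0.25 to 0.86 for the interaction, 0.19 to 0.43 for the knockout and -0.19 to 0.08 for cold. P3h1 and Hgfac lost their calls in Sirt2-/- against Control without a filter on low counts (adjusted p = 0.0535 and 0.057), with only the 2 groups compared (0.0966 and 0.109) and with the clock covariate. These fits called 0.135%, 0.195% and 0.0% of all genes in this comparison, against 0.89% in the main fit. Hgfac also lost its call without both CE replicates 8 and 9 (0.0524, 0.45% of all genes called). Over 54 results and 33 alternatives, 1151 values kept their direction and side of the threshold or moved little, and 43 did not. Not every result was set against every alternative. The main tests called 0 of the 33 genes, so for them keeping the side of the threshold says little about stability. No paired analysis was possible because replicate numbers run from 1 to 20 and no number occurs in more than 1 group.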
